A study of Mus musculus with 18 samples.

Results

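The genes described here were the variable and constant segments of the T cell receptor, measured by RNA sequencing in mouse spleen cells. They were chosen by name and by annotation. A gene counted when its symbol was that of an alpha, beta, gamma or delta variable or constant segment, when GENCODE release 21 typed it as a functional variable or constant gene, and when its mean over the libraries was above 0. This gave 149 of the 47729 reference genes in the tables, 141 variable and 8 constant. The alpha chain had 108 variable segments and 1 constant gene, the beta chain 22 and 2, the gamma chain 6 and 4, and the delta chain 5 and 1. The annotation holds 152 such genes in the tables, of which 3 carry other symbols and were left out, as were 34 variable pseudogenes.

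The 18 libraries fell into 4 groups. Group N held 3 libraries of naive mice. Group LM held 3 libraries labelled LPPC/mp, group LMA 6 labelled LPPC/mp/CD28, and group LMS 6 labelled LPPC/mp/CD152. LPPC is a cationic liposome of lipid, polyethylene glycol and polyethylenimine that adsorbs proteins on its surface. MP are membrane proteins, taken in the study from dendritic cells, and the antibody on the particle is directed at CD28, a costimulatory receptor of T cells, or at CD152 (CTLA-4), an inhibitory one. The study's methods describe repeated LPPC/MP injections followed by 1 or 2 rounds of modulation, and the labels do not tell those rounds apart. The labels give spleen, strain C57BL/6J and female sex for every library, and no age that belongs to this experiment, since their protocol text describes an implanted melanoma treated with other drugs.

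A T cell builds its receptor from separate segments. In the thymus, RAG recombinase joins 1 variable segment to joining segments, and in the beta and delta chains to diversity segments as well, and the joined exon is spliced to the constant exons. Most T cells of the spleen carry an alpha and a beta chain, and a minority carry gamma and delta. The RNA of a constant gene therefore follows the T cell content of a sample, and the share of a variable segment follows how many of those cells use it. In bulk RNA, fewer T cells and less receptor RNA per cell cannot be told apart. Thymic selection shapes usage as well. In mouse strains that express the class II molecule I-E, superantigens of endogenous mammary tumour viruses delete developing T cells with certain beta segments. Beta segments long known to be subject to this are the older families Vb3, Vb5, Vb11 and Vb12, which RefSeq synonyms place at Trbv26, Trbv12-1 and Trbv12-2, Trbv16, and Trbv15.

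Several libraries stood apart before any comparison, and some went against their labels. Eif2s3y, a gene of the Y chromosome, was at 31.0 to 43.0 FPKM in 14 libraries and at 0 in N 1, N 2, LMS 2 and LMS 5, although every label says female. The same 4 libraries were rich in lymphocyte RNA. Cd3e, a subunit of the receptor complex that marks T cells, was at 55.5 to 68.8 FPKM in them and at 0.843 to 15.6 FPKM in the others. Cd79a of B cells was at 368 to 518 FPKM against 9.60 to 107 FPKM. Lyz2, a lysozyme of macrophages and neutrophils, ran the other way, at 267 to 307 FPKM against 1386 to 2888 FPKM, and was highest in N 3. Hba-a1 of red cells was at 20150 to 24295 FPKM in N 2, LMS 2 and LMS 5 and at no more than 2153 FPKM in the others. H2-Ea-ps, the alpha chain gene of I-E, which C57BL/6 mice do not transcribe, was at 0.0671 FPKM in N 1 and at 26.0 to 1070 FPKM in the other 17 libraries. The NK cell receptor gene Klra8 was at 10.4 FPKM in N 1 and at no more than 0.0651 FPKM elsewhere, while the NK receptor gene Ncr1 was at 16.3 FPKM in N 1 and 18.1 to 21.9 FPKM in N 2, LMS 2 and LMS 5. The study's methods name both C57BL/6 and BALB/c mice. The part that strain, sex and cell content had in the values below was not tested.

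Shown are 6 beta segments with a larger share in N 1 than in any other library, together with the most used segment, Trbv13-2. The low segment Trbv23, at 0.384% of beta variable FPKM in N 1 and at most 0.239% elsewhere, is not shown. H2-Ea-ps, Klra8 and Ncr1 above and these 6 segments were chosen after their values were seen. Each line gives the last 60 bases of the segment on GRCm38 (mm10), taken from the GENCODE transcripts, 5′ to 3′. The capitals mark the codon of the conserved cysteine and what follows it, the germline start of the third complementarity-determining region, the loop that contacts the peptide.
Trbv13-2 (chr6:41121773-41121832, plus strand): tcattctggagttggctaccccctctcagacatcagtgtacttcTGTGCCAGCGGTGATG
Trbv3 (chr6:41048769-41048828, plus strand): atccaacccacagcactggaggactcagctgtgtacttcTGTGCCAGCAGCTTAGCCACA
Trbv12-1 (chr6:41114008-41114067, plus strand): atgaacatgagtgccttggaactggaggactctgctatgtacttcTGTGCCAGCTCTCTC
Trbv12-2 (chr6:41119305-41119364, plus strand): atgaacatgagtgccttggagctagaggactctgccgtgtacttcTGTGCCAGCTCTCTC
Trbv15 (chr6:41141599-41141658, plus strand): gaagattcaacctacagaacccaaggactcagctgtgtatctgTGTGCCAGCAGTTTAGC
Trbv16 (chr6:41152171-41152230, plus strand): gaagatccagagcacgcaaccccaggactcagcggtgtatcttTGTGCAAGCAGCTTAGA
Trbv26 (chr6:41227934-41227993, plus strand): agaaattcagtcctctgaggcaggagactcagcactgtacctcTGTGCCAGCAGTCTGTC

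The capitals hold 15 to 21 bases in these segments, and all open with the letters TGTGC. Only Trbv12-1 and Trbv12-2 share the same capitals. The segments differ upstream as well: over the last 250 bases, no beta segment was fewer than 22 edits from another. Trbv12-1 and Trbv12-2 differed by 30 edits and Trbv13-2 and Trbv13-3 by 22, so that reads could tell the beta segments apart. All 24 beta members lie on chromosome 6 between 40891229 and 41558452.

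The alpha locus is different, because its variable region is repeated, and the letters d and n in a symbol mark segments of the repeated copies. The lines below show 2 pairs of copies that were high in N 1 and the pair used by invariant NKT cells.
Trav12d-3 (chr14:52930223-52930282, plus strand): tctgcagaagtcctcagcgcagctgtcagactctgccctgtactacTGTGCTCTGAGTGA
Trav12n-3 (chr14:53241185-53241244, plus strand): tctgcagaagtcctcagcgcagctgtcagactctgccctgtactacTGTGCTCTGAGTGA
Trav3d-3 (chr14:52972979-52973038, plus strand): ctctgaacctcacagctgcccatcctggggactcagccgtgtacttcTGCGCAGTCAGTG
Trav3n-3 (chr14:53284116-53284175, plus strand): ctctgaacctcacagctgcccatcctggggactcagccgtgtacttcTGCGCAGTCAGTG
Trav11 (chr14:53519800-53519859, plus strand): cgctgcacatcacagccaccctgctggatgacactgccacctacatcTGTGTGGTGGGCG
Trav11d (chr14:52824853-52824912, plus strand): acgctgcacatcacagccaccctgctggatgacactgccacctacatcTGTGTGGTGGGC

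Trav12d-3 and Trav12n-3 were identical over the last 250 bases, as were Trav3d-3 and Trav3n-3. Of the 108 alpha variable segments, 36 were identical to another over that length and 70 were within 5 edits of another. Levels of such copies are uncertain one by one, since a read can belong to either. Trav7-2 and Trav7d-2, an identical pair, were listed within 0.01 FPKM of each other in 16 of 18 libraries. The 115 alpha and delta members lie on chromosome 14 between 52427928 and 54224206, and the 10 gamma members on chromosome 13 between 19178024 and 19352756.

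Depth set a limit for most members. The libraries held 5.21 to 7.92 gigabases aligned to genes, as recovered from the ratio of coverage to FPKM, and 0.5 FPKM stood for a mean coverage of 2.60 to 3.96 reads per base. Between 37 members, in N 3, and 149, in N 1, were listed above 0 in a library, and 25 members were above 0 in every library. A mean of at least 0.5 FPKM, the level required for testing, was met by 51 members: all 4 alpha, beta and delta constant genes, 3 of 4 gamma constant genes, 19 of 22 beta, 23 of 108 alpha, 1 of 6 gamma and 1 of 5 delta variable segments. Just inside were Trav11d at 0.526 and Trav12-3 at 0.534 FPKM, and just outside Trav10 at 0.479 and Trav7-2 at 0.470 FPKM. Because the mean runs over all libraries, 10 of the 51 passed only through N 1: their mean over the other 17 libraries was under 0.5 FPKM. Among them were Trbv26 at 0.137, Trbv12-1 at 0.253, Trbv15 at 0.486, Trgv2 at 0.481, Trdv2-2 at 0.461 and Trav11d at 0.472 FPKM. Counts and medians over the 51 are therefore a description of the segments that passed.

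Trac, the alpha constant gene, was the clearest single measure of alpha chain RNA. It was at 163, 109 and 0.812 FPKM in N 1, N 2 and N 3, and at 22.8, 27.1 and 20.9 FPKM in the 3 LM libraries. In LMA it ran from 11.5 through a median of 16.4 to 24.6 FPKM, and in LMS from 5.44 through 9.86 to 105 FPKM. The LM and LMA libraries were alike, with ranges that overlapped. The N libraries enclosed all others on both sides, and LMS 2 and LMS 5, at 99.7 and 105 FPKM, stood far above LMS 1, 3, 4 and 6, at 5.44, 5.81, 6.33 and 13.4 FPKM. The mean ± SD of Trac was 90.9 ± 82.6 FPKM in N (n = 3), 23.6 ± 3.14 in LM (n = 3), 17.6 ± 5.61 in LMA (n = 6) and 39.3 ± 49.0 in LMS (n = 6).

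The beta constant genes were likewise highest in N 1 and lowest in N 3, but LMA and LMS did not keep the order of Trac. Trbc2 was at 264, 148 and 2.67 FPKM in N and at 38.7, 51.0 and 35.6 FPKM in LM. It ran from 22.7 through 26.7 to 36.9 FPKM in LMA and from 14.4 through 26.7 to 140 FPKM in LMS. For Trbc1 the N libraries held 135, 83.0 and 1.91 FPKM and the LM libraries 21.4, 25.7 and 20.8 FPKM, with medians of 14.5 FPKM in LMA and 16.6 FPKM in LMS. The medians of LMA and LMS were tied for Trbc2 and in the other order for Trbc1. The ratio of Trbc1 to Trbc2 stayed between 0.503 and 0.713 in all 18 libraries. The first 250 bases of Trbc1 occur without a difference in Trbc2, so the split between this pair depends on how shared reads were assigned.

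**Figure D1:**
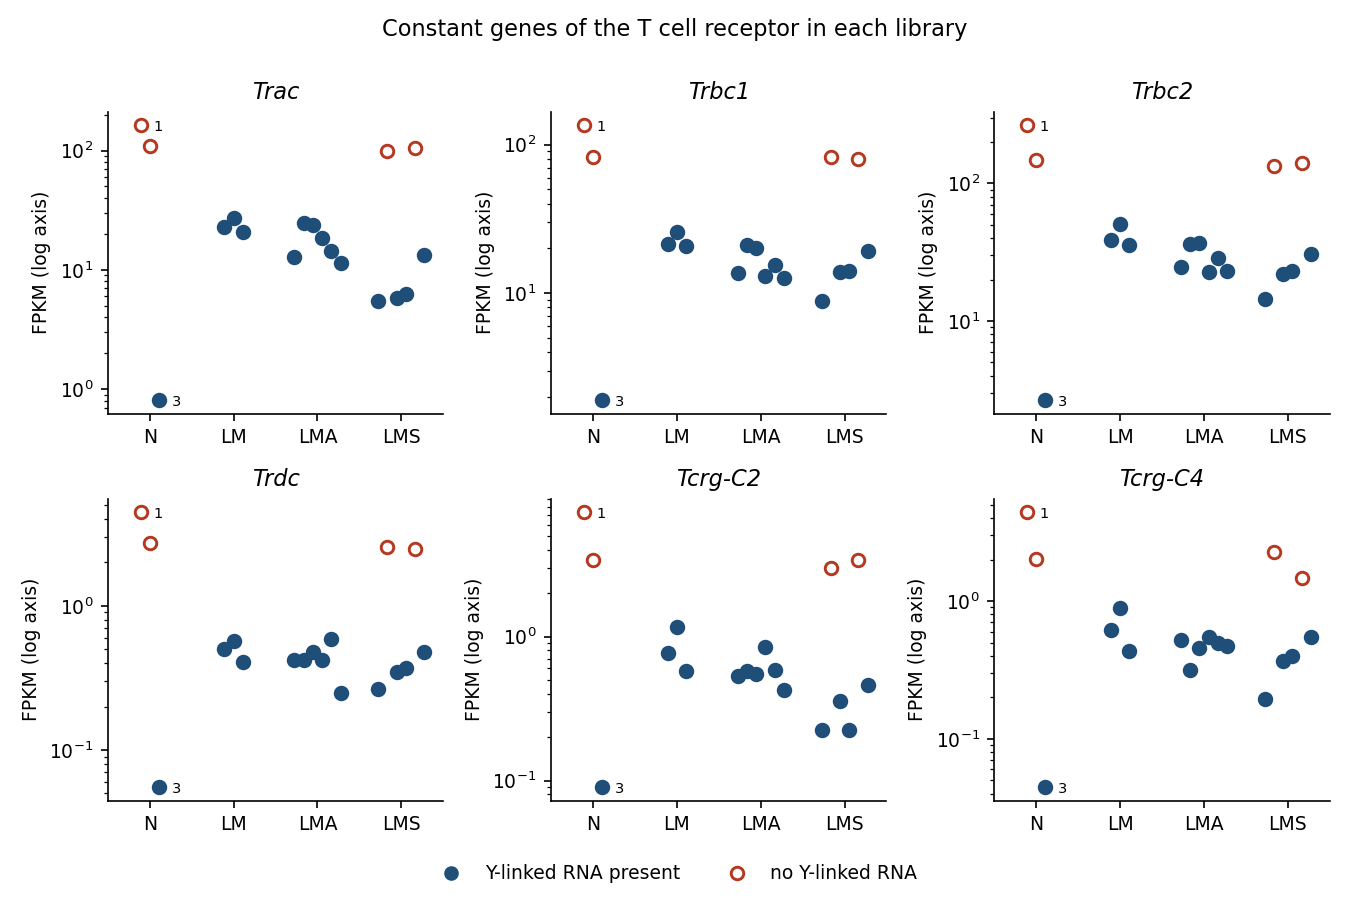
FPKM of 6 constant genes in each library, by group, on a log axis. Open red circles are the 4 libraries without Y-linked RNA, filled blue circles the 14 with it, and N 1 and N 3 are numbered. For each gene drawn, the open circles lie above every filled one and N 3 lies lowest.

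Trdc and the gamma constant genes, which mark gamma delta T cells, were far lower but fell in the same places. Trdc was at 4.46, 2.72 and 0.0554 FPKM in N, at 0.506, 0.569 and 0.406 FPKM in LM, at a median of 0.422 FPKM in LMA (0.250 to 0.588) and at a median of 0.425 FPKM in LMS (0.266 to 2.54). Tcrg-C2 was at 7.30, 3.38 and 0.0903 FPKM in N and at 0.763, 1.17 and 0.579 FPKM in LM. Tcrg-C4 was at 4.41, 2.03 and 0.0448 FPKM in N and at 0.620, 0.888 and 0.435 FPKM in LM. Tcrg-C1 was at 4.23, 1.33 and 0 FPKM in N and at 0.185, 0.535 and 0.230 FPKM in LM. Tcrg-C3 was listed at 0 in 12 libraries and reached 0.129 FPKM at most. Tcrg-C1 and Tcrg-C2 are 7 edits apart over 250 bases, and their split is uncertain too.

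Alpha and beta chain RNA did not keep 1 ratio. Trac over Trbc2 was 0.530 to 0.590 in LM, 0.495 to 0.807 in LMA and 0.618 to 0.749 in the 4 libraries without Y-linked RNA. In LMS 1, 3, 4 and 6 it was 0.379, 0.266, 0.276 and 0.441, and in N 3 it was 0.304. These 5 libraries had the lowest values and were also those with the highest Lyz2. The variable segments, whose sums use other reads, gave much the same picture in LMS. Summed alpha over summed beta variable FPKM was 0.371 to 0.513 in LMS 1, 3, 4 and 6, against 0.523 to 0.755 in LM and 0.607 to 0.754 in LMA. N 3 differed here, at 0.689, on sums of 1.06 and 1.54 FPKM. Trdc over Trac was 0.0357 to 0.0599 in LMS 1, 3, 4 and 6 and 0.0172 to 0.0408 in LM and LMA.

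**Figure D2:**
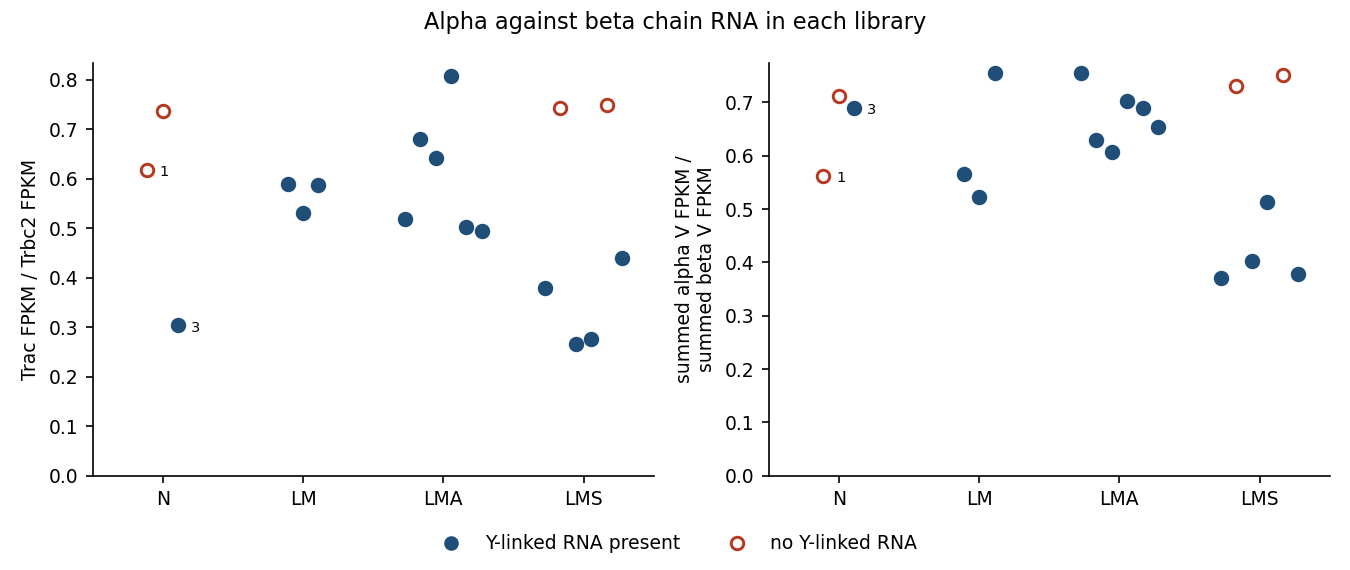
Ratio of Trac to Trbc2 (left) and of the summed alpha to the summed beta variable FPKM (right) in each library, by group, on axes from 0. Open red circles are libraries without Y-linked RNA, and the 4 filled LMS circles lie at 0.266 to 0.441 on the left and 0.371 to 0.513 on the right, below every LM and LMA library in both panels.

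Among the beta variable segments, the Trbv13 family led. Trbv13-2, the older Vb8.2, was at 34.0, 22.5 and 0.372 FPKM in N and at 5.63, 6.61 and 4.88 FPKM in LM. It ran from 3.43 through 4.36 to 5.68 FPKM in LMA and from 2.39 through 4.05 to 24.9 FPKM in LMS. Trbv13-1 had a mean of 5.93 FPKM over the 18 libraries and Trbv13-3 of 4.26 FPKM, and Trbv20, Trbv1, Trbv4, Trbv5 and Trbv19 followed at 3.87, 3.58, 3.46, 3.09 and 3.02 FPKM. All 8 were highest in the 4 libraries without Y-linked RNA and lowest in N 3. Their levels in N 3 were at most 0.372 FPKM, and in N 1, N 2, LMS 2 and LMS 5 at least 7.33 FPKM, above every library with Y-linked RNA.

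Shares remove the difference in T cell RNA between libraries. Each share is a segment's percent of the summed beta variable FPKM of its library, and the sums were 253, 143 and 1.54 FPKM in N, 27.4 to 43.6 FPKM in LM, 24.3 to 34.7 FPKM in LMA and 15.7 to 139 FPKM in LMS. Trbv13-2 took the largest share in every library, from 11.8% to 24.1%, where the highest was N 3 with its small sum. The order of the segments was alike in most libraries. The rank correlation (Spearman) of the 22 shares was 0.970 to 0.981 among N 2, LMS 2 and LMS 5, which were the deepest in T cell RNA after N 1, 0.860 to 0.954 among the 9 LM and LMA libraries, and 0.836 to 0.945 between these sets. These are descriptions over segments that share a library, and segments are not independent.

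N 1 differed from the other libraries in its beta shares. All shares rest on C57BL/6J sequence, and the part that sequence differences between strains had in them was not tested. Its rank correlation with the other libraries, N 3 left out, was 0.343 to 0.537, and with N 2, of the same group, LMS 2 and LMS 5 it was 0.455 to 0.496. Trbv3 took 8.40% of the beta sum in N 1 and 0 to 4.09% in the other 17 libraries. Trbv16 took 6.63% against 0 to 2.90%, Trbv15 5.54% against 0 to 2.19%, and Trbv12-1 3.73% against 0 to 1.87%. Trbv26 took 3.01% against 0 to 1.09%, and Trbv12-2 7.49% against 2.30 to 6.36%. Together the 6 made up 34.8% of beta variable FPKM in N 1 and 4.16% to 13.4% elsewhere. Among those which fell short in N 1 were common ones, Trbv13-1 at 6.68% against 8.59 to 15.0%, and Trbv5 at 3.38% against 3.53 to 7.44%. Trbv20 was at 3.49% in N 1, 6.57 to 9.63% in N 2, LMS 2 and LMS 5, 5.92 to 11.3% in 13 others and 0 in N 3.

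**Figure D3:**
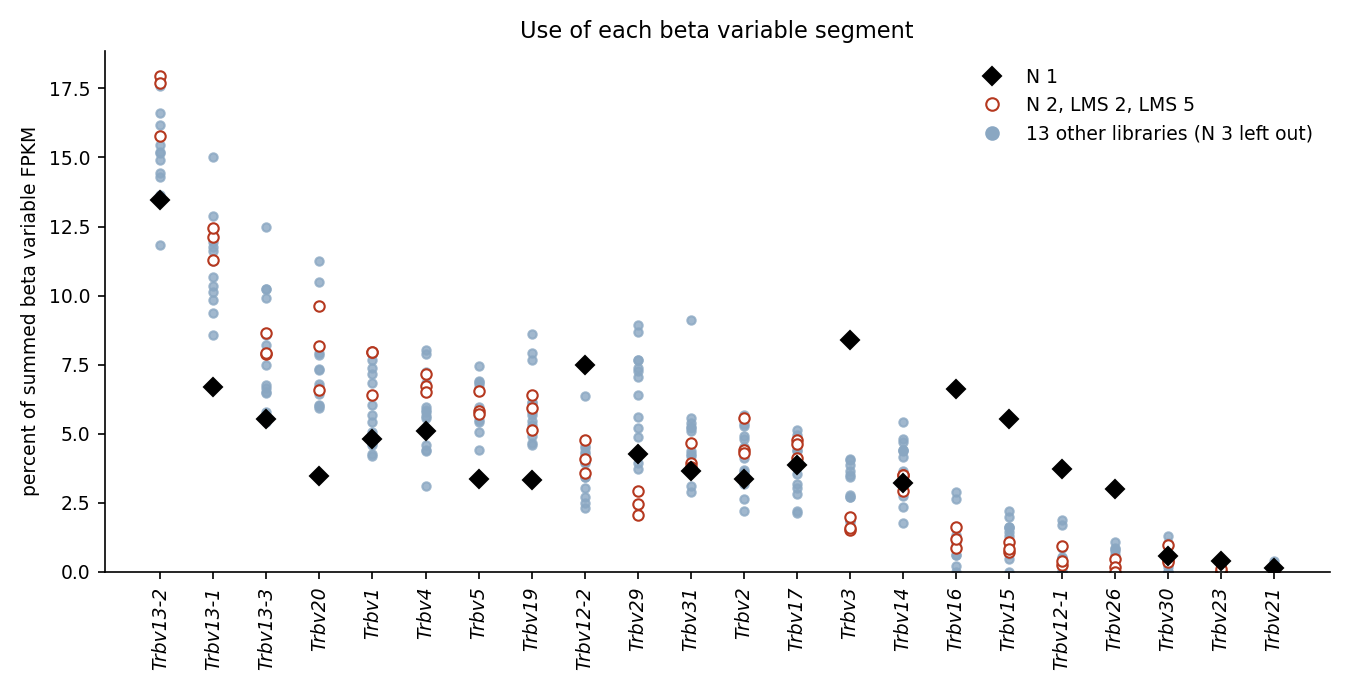
Share of each of the 22 beta variable segments in the summed beta variable FPKM of a library, in percent. Black diamonds are N 1, open red circles N 2, LMS 2 and LMS 5, and blue points the 13 others with N 3 left out. In N 1, Trbv3, Trbv16, Trbv15, Trbv12-1, Trbv26 and Trbv12-2 lie above every other library, as does Trbv23 at 0.384%.

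The difference was as plain in the levels themselves. Trbv26 was at 7.61 FPKM in N 1, at 0.662 FPKM in N 2, and at no more than 0.299 FPKM in the rest, with 5 libraries at 0. Trbv15 was at 14.01 FPKM in N 1 and at 1.48 FPKM in the next highest library, LMS 2. Trbv3 held 21.2 FPKM in N 1 against 2.86 FPKM in N 2, Trbv16 16.8 against 2.31 FPKM, and Trbv12-1 at 9.42 FPKM in N 1 against 1.28 FPKM in LMS 2. N 1 was the highest of all 18 libraries for 95 of the 149 members. It exceeded the next library more than 3 times for 32 members, 24 alpha, 7 beta and 1 delta, with Trav18 among them, which was at 0.0918 FPKM in N 1. H2-Ea-ps and Klra8 set the same single library apart. Among the other 17 libraries the summed level of the 6 segments was highest in N 2, at 13.02 FPKM, where H2-Ea-ps and Cd3e were highest too. By share N 2 was at 9.13%, where the median of those libraries was 9.74%. Klra8 was at or near 0 in all of them, so N 1 alone makes the pattern in the plot of the segments' share against both genes.

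**Figure D4:**
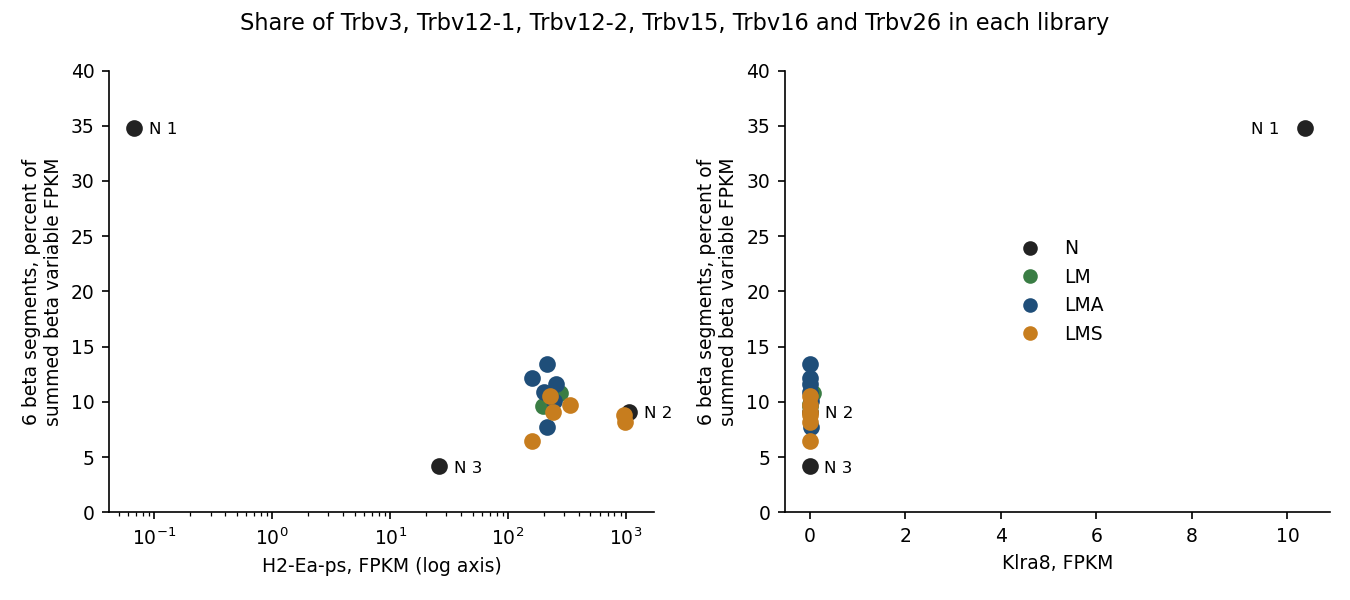
Share of Trbv3, Trbv12-1, Trbv12-2, Trbv15, Trbv16 and Trbv26 in the summed beta variable FPKM (percent) against H2-Ea-ps (left, log axis) and Klra8 (right), both in FPKM, 1 point per library, coloured by group. N 1 lies at 34.8% with 0.0671 FPKM of H2-Ea-ps and 10.4 FPKM of Klra8, and the other 17 lie at 4.16% to 13.4%.

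The alpha variable segments were many and low, with the leading 8 at means of 0.777 to 1.18 FPKM. Trav7-4 was at 2.84, 4.47 and 0.0397 FPKM in N and at 0.513, 0.670 and 0.373 FPKM in LM. Trav8d-1 was at 0.651, 4.26 and 0 FPKM in N. Trav8-1, 1 edit from it over 250 bases, was at 2.73 FPKM in N 1 and at no more than 0.425 FPKM elsewhere. The split between these copies is uncertain, so the low value of Trav8d-1 in N 1 does not show less of the pair. Trav3-3, Trav14d-3-dv8, Trav6-6, Trav14-1, Trav6n-6 and Trav7-3 had means of 0.957, 0.936, 0.925, 0.884, 0.814 and 0.777 FPKM. Summed over 108 segments, the N libraries held 142, 101 and 1.06 FPKM of alpha variable RNA, LM libraries 18.1 to 22.8, LMA libraries 16.5 to 21.9 and LMS libraries 5.83 to 101 FPKM.

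Alpha usage separated N 1 as well. The rank correlation over the 108 shares was 0.297 to 0.342 between N 1 and N 2, LMS 2 or LMS 5, and 0.868 to 0.895 among those 3. Among LM and LMA libraries it was 0.487 to 0.727, whose alpha sums were far lower. Trav3d-3 was at 1.92 FPKM in N 1 and at no more than 0.0405 FPKM elsewhere, and Trav12d-3 at 1.91 FPKM against 0.189 FPKM or less. Their identical copies behaved alike: Trav3n-3 reached 1.95 FPKM in N 1 against 0.383 FPKM or less elsewhere, and Trav12n-3 2.04 FPKM against 0.256 FPKM or less. All 4 were named after their values were seen. By repeat copy, segments with no letter, d and n took 50.8%, 26.2% and 23.0% of alpha variable FPKM in N 1, and 45.0 to 45.9%, 32.6 to 33.5% and 20.9 to 21.6% in N 2, LMS 2 and LMS 5.

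Segments of innate-like T cells were near the limit of detection outside the T cell rich libraries. Trav11 and Trav11d encode the alpha chain of invariant NKT cells, which recognise lipids on CD1d. Trav11d was at 1.44, 1.32 and 0 FPKM in N, at 0.288, 0.178 and 0.281 FPKM in LM, from 0.108 through 0.144 to 0.289 FPKM in LMA and from 0.231 through 0.345 to 2.31 FPKM in LMS. Trav11 was at 1.44, 0.767 and 0 FPKM in N and at 0.280 FPKM or less in LM and LMA. Trav1, the alpha segment of MAIT cells, was at 0.855, 0.913 and 0 FPKM in N, and at 0.233 FPKM or less in all 14 libraries with Y-linked RNA. The pair Trav11 and Trav11d differ by 1 edit, so that only their sum is well determined.

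The gamma and delta variable segments were low as well. Trgv2, the most abundant gamma variable segment, was at 3.89, 1.27 and 0.133 FPKM in N and at 0.0910, 0.210 and 0.394 FPKM in LM. It was at a median of 0.230 FPKM in LMA and 0.310 FPKM in LMS. Trdv2-2 was at 1.94, 1.72 and 0.0505 FPKM in N, and at 0.294, 0.387 and 0.214 FPKM in LM. The other 5 gamma segments had means of 0.0407 to 0.419 FPKM, and the other 4 delta segments 0.0829 to 0.388 FPKM.

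Whether treatment changed receptor RNA was tested for the 51 members with limma on log2(FPKM + 0.5), fitted over 11696 genes and adjusted by the Benjamini-Hochberg method. The 3 comparisons with N share its libraries, and no source says that libraries came from separate animals, so p-values measure the spread between these libraries. A change is a difference of mean log2(FPKM + 0.5) and understates the change of low segments.

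Against N, no member was called in any of the 3 treated groups. In LM against N, 0 of 51 members were called, against 24.2% of all genes. An unadjusted p under 0.05 was found for 1 member and 4393 of 11696 genes. All 51 had a lower mean in LM, with a median log2 change of -0.71 against -0.12 over all genes. Leaving out N 1, N 2 or N 3 moved that median to -0.19, -0.35 or -1.88. In LMA against N, 0 of 51 were called, against 34.4% of all genes, and 4 members and 5408 of 11696 genes had an unadjusted p under 0.05. The median was -0.87 against -0.13 over all genes, and became -0.25, -0.46 or -1.90 without N 1, N 2 or N 3. In LMS against N, 0 of 51 members and 0% of all genes were called. Here 2 members and 505 of 11696 genes had an unadjusted p under 0.05. The median was -0.48 against -0.01, and became 0.04, -0.04 or -1.56 in the same order. Groups did not overlap for 0 of 51 members in each comparison, against 32.9%, 29.7% and 0.479% of all genes, and for Trac N 1 and N 2 lay above and N 3 below every treated library.

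The smallest p-values belonged mostly to segments that stood high in N 1 and that, Trbv16 excepted, passed the filter only through N 1, so they are given as a description. Trbv26 had a log2 change of -1.49 (SE 0.65, adjusted p = 0.106) in LM, -1.36 (SE 0.56, adjusted p = 0.0703) in LMA and -1.59 (SE 0.56, adjusted p = 0.626) in LMS. Without N 1 these were -0.35, -0.22 and -0.45. Trbv16 was at -1.63 (adjusted p = 0.183), -1.73 (adjusted p = 0.0859) and -1.67 (adjusted p = 0.626), and without N 1 at -0.34, -0.44 and -0.38. Trgv2 was at -1.24 in LM (adjusted p = 0.148), Trdv2-2 at -1.09 in LMA (adjusted p = 0.0855) and Trbv15 at -1.24 in LMS (adjusted p = 0.626). For Trbv15 the change was 0.11 without N 1.

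The outcome against N turned on which naive libraries were kept. Without N 3, 38 of 51 members were lower in LM (33.7% of all genes), 47 in LMA (38.1%) and 34 in LMS (20.6%). Within the 14 libraries with Y-linked RNA, a split chosen after the data were seen, N 3 was the only N library left and its spread was assumed to be that of the other groups. There 40 of 51 members were higher in LM than in N 3, against 27.2% of all genes, and 35 were higher in LMA, against 27% of all genes. In LMS 17 of 51 were higher, against 6.7% of all genes. Median changes were 1.06, 0.83 and 0.53. Within the 4 libraries without Y-linked RNA, where LMS and N had 2 each, 0 of 51 members and 0% of all genes were called in LMS against N, 1 member had an unadjusted p under 0.05, and the median was -0.26.

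LMA against LM joins the 2 most even groups. By the study's methods, LMA adds 1 or 2 rounds of particles carrying the CD28 antibody. The antibody cannot be told apart from the further injections and the time they took. In this comparison 0 of 51 members and 0% of all genes were called. An unadjusted p under 0.05 was found for 0 members and 130 of 11696 genes. The spread in this fit was estimated over all 18 libraries, so the gaps within N and LMS entered it and small changes could be missed. In a fit of LM and LMA alone, 0 of 51 members and 128 of 11696 genes were called. The median change was -0.18 against 0.00 over all genes, with 14 members above 0 and 37 below. Groups did not overlap for 1 of 51 members, against 6.81% of all genes. That was Trav7d-4, at 0.7997, 0.530 and 0.848 FPKM in LM and 0.101 to 0.453 FPKM in LMA, with a log2 change of -0.64 (SE 0.54, adjusted p = 1.00). Trav7-4, 1 edit from it over 250 bases, had a change of 0.16, so the split between these copies is uncertain. Trav6n-6 had a change of -0.59 and Trbv5 of -0.41, both with adjusted p = 1.00. Within the libraries with Y-linked RNA, which hold every LM and LMA library, 0 of 51 members were called, against 0.573% of all genes. There 6 members had an unadjusted p under 0.05, and the share of all genes at that threshold was not counted.

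LMS against LM, which adds rounds of particles with the CD152 antibody, called 0 of 51 members, against 20.5% of all genes. At an unadjusted p under 0.05 there were 0 members and 3649 of 11696 genes. Antibody and added rounds cannot be told apart here either. The median change was 0.20 against 0.10, and groups did not overlap for 0 of 51 members, against 32.1% of all genes. Trav11d had a change of 0.61 (SE 0.45, adjusted p = 0.415), Trbv2 of 0.80 (SE 0.75, adjusted p = 0.535) and Trgv2 of 0.56 (SE 0.53, adjusted p = 0.536). LMS 2 and LMS 5 decided that direction. Within the libraries with Y-linked RNA, LMS 1, 3, 4 and 6 had 19 of 51 members called lower than LM, against 28.3% of all genes called lower, and the median was -0.42 against 0.07.

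Those 19 were 11 alpha, 6 beta and 2 gamma members, and Trac moved furthest. Its log2 change in this subset was -1.63 (SE 0.31, adjusted p = 0.000389), against -0.92 (SE 0.23, adjusted p = 0.00360) for Trbc2 and -0.71 (SE 0.23, adjusted p = 0.0139) for Trbc1. Of the variable segments, Trav7d-4 was at -0.96 (adjusted p = 0.000275), Trav6n-6 at -1.004 (adjusted p = 0.00342) and Trbv4 at -0.87 (adjusted p = 0.00321). The split of Trav7d-4 from its near copy Trav7-4 is uncertain. Trdc, at -0.20 (adjusted p = 0.170), and Trav11d, at 0.08 (adjusted p = 0.533), did not pass. In the same libraries the summed FPKM of 12 T cell markers was 43.1 to 94.1 in LMS and 99.6 to 141 in LM. Neutrophil markers summed to 146 to 307 FPKM in LMS and 1510 to 1784 FPKM in LM, with 10 of 10 called lower and a median log2 change of -3.39. Erythroid markers summed to 555 to 1188 FPKM and 4755 to 7086 FPKM, with 9 of 9 called lower. The 12 macrophage and monocyte markers summed to 3581 to 3799 FPKM and 2895 to 3057 FPKM, a sum in which Lyz2 weighs most, while 8 of the 12 were called lower and 3 higher, with a median of -0.46. None of these sums overlapped between the groups. Dendritic cell markers were also lower, at 5.98 to 8.72 FPKM in LMS and 13.8 to 18.5 FPKM in LM. B cell markers overlapped, at 285 to 476 FPKM in LMS and 371 to 471 FPKM in LM. NK cell markers were higher in LMS, at 16.8 to 35.3 FPKM against 9.73 to 13.2 FPKM. The part of cell content in the change of the receptor genes was not tested.

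LMA against LMS, the direct comparison of both antibodies, called 0 of 51 members, against 29.8% of all genes. At an unadjusted p under 0.05 there were 0 members and 4577 of 11696 genes. The median change was -0.33 against -0.11, and groups did not overlap for 0 of 51, against 29.4% of all genes. Trav11d came closest, at -0.79 (SE 0.37, adjusted p = 0.128), followed by Trdv2-2 at -0.60 (adjusted p = 0.282) and Trgv2 at -0.51 (adjusted p = 0.415). Without LMS 2 and LMS 5, within the libraries with Y-linked RNA, the median turned to 0.30. There 13 of 51 members were higher in LMA, against 29% of all genes called higher, among them Trac at 1.17 (SE 0.26, adjusted p = 0.00124). Trav11d was the 1 member lower in LMA, against 43.1% of all genes, at -0.26 (SE 0.09, adjusted p = 0.0240). It passed the filter only through N 1, lay at 0.108 to 0.289 FPKM in LMA, and its split from Trav11 is uncertain. The counts of members in both directions lay below those shares of all genes called.

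**Figure D5:**
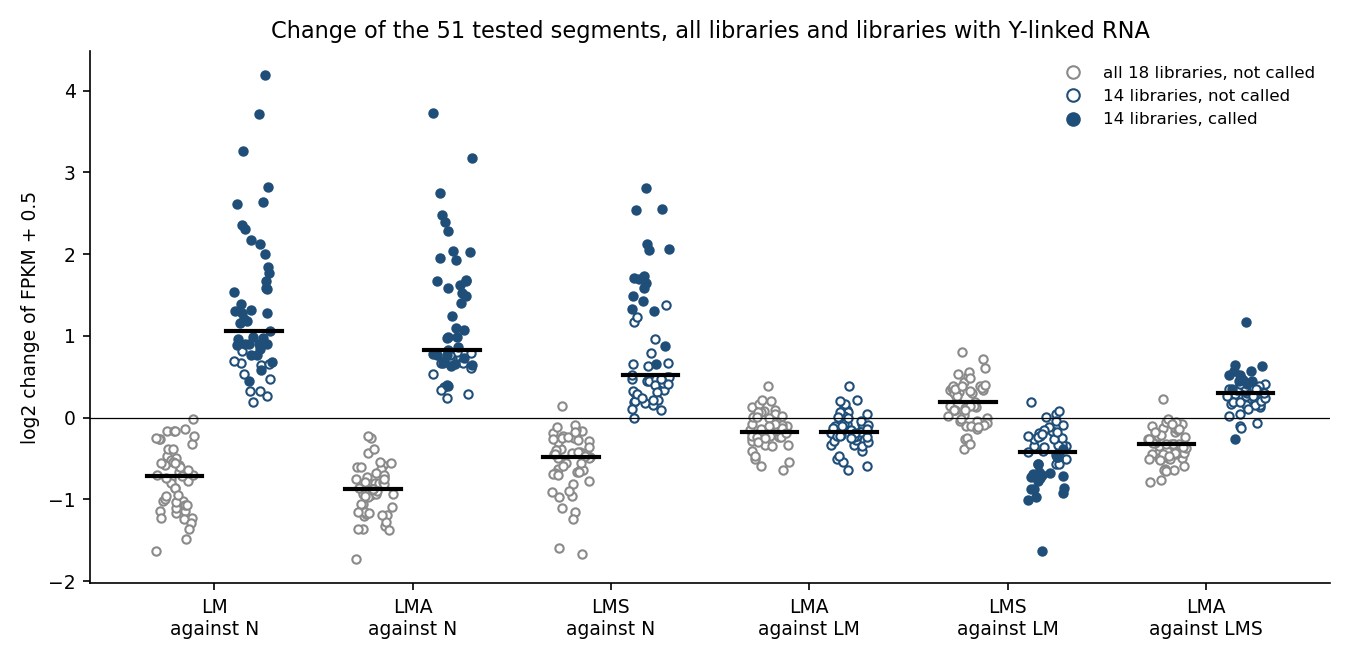
Difference of mean log2(FPKM + 0.5) of the 51 tested segments in the 6 comparisons, 1 circle per segment and a bar at the median. Grey circles use all 18 libraries, where no segment was called. Blue circles use the 14 libraries with Y-linked RNA, filled where the adjusted p was under 0.05, and the medians of LM, LMA and LMS against N turn from -0.71, -0.87 and -0.48 to 1.06, 0.83 and 0.53.

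The genes that build and serve the receptor were read from lists chosen with earlier results known. Of the 24 genes of the receptor's signalling complex, Lcp2, an adaptor that myeloid cells also use, was the only one called. It rose in LM (0.62, adjusted p = 0.000176) and LMA (0.63, adjusted p = 2.57e-05) against N and was lower in LMS than in LM (-0.69, adjusted p = 1.41e-05) and LMA. The other 23, with Cd2, Lck and Cd3g the most abundant, were not called in any comparison. Lck, the kinase that starts receptor signalling, was at 68.8 to 106 FPKM in the 4 libraries without Y-linked RNA, at 2.002 FPKM in N 3, at 16.9 to 22.7 FPKM in LM, at 12.7 to 19.5 FPKM in LMA and at 6.10 to 13.3 FPKM in the other LMS libraries. It kept the order of Trac.

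Of 10 genes of recombination and the pre-receptor, 6 were abundant enough to test, and Rag1, Rag2, Dntt and Ptcra, which act in developing lymphocytes, were not. The DNA repair genes Prkdc and Lig4, which every cell uses, fell in LM (-0.62, adjusted p = 0.000281, and -0.45, adjusted p = 0.0399) and in LMA (-0.58, adjusted p = 8.62e-05, and -0.53, adjusted p = 0.00509) against N. Prkdc was higher in LMS than in LM (0.53, adjusted p = 0.000231), and both were lower in LMA than in LMS. Xrcc6, Dclre1c, Xrcc4 and Xrcc5 of the same repair pathway were not called.

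Of 10 T cell transcription factors, Zbtb7b was the only one called. Zbtb7b, the CD4 lineage factor, rose in LM (0.58, adjusted p = 0.00503) and LMA (0.60, adjusted p = 0.000926) and was lower in LMS than in both. Ets1, Tcf7 and Ikzf3 were highest in the libraries with the most Trac and lowest in N 3, Tcf7 with 84.1 to 185 FPKM in the 4 libraries without Y-linked RNA and 0.662 FPKM in N 3. None of the 3 testable genes of gamma delta and innate-like T cells (Blk, Maf and Cxcr6) was called in any comparison over all 18 libraries. In that limma fit 0 of them had an unadjusted p under 0.05. Blk is also among the B cell markers used here, so this list does not read out innate-like T cells alone.

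Within the libraries with Y-linked RNA, the signalling and transcription factor lists had most of their genes called, and the calls in the recombination list went the other way. In LMS against LM, 28.3% of all genes were called lower, with a median of 0.07. There 19 of 24 genes of the signalling complex and 9 of 10 transcription factors were lower, with median log2 changes of -0.86 and -1.09. Of the recombination list, 4 of 6 genes were higher. Of the testable gamma delta and innate-like genes, 2 of 3 were lower. Over all genes 7944 of 11696 were called, and 58.3% of those calls were higher. In LMA against LMS, 17 of 24 and 10 of 10 were higher, with medians of 0.59 and 1.10, against 29% of all genes and a median of -0.08. Of the recombination genes 4 of 6 were lower, against 43.1% of all genes. Of the gamma delta and innate-like genes 2 of 3 were higher. In LMA against LM none of these 4 lists had a gene called, although 9 of 24 signalling genes had an unadjusted p under 0.05, with a median of -0.27. The share of all genes at that unadjusted threshold was not counted. Lcp2, Prkdc and Zbtb7b were called in LMS against LM in the same direction as over all libraries, at -0.61, 0.48 and -0.73. Lig4 was no longer called against N, at -0.13 in LM (adjusted p = 0.373) and -0.21 in LMA (adjusted p = 0.114).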

How the data were processed

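RNA of spleen cells was sequenced for 18 libraries. The authors deposited 1 table per library with FPKM, coverage and TPM columns per gene. FPKM (fragments per kilobase of gene and sequencing depth, by the authors) was used for every level and test. The deposited coverage (mean reads per base, a signal) served only for the depth. The TPM column in the authors' tables, kept as a score because its scaling is unknown, was not tested. The submitters' processing notes name mm10 and GATK 4.2, and no aligner or counter is named there. mm10 is the C57BL/6J genome, so segments of another strain are measured against C57BL/6J sequence, and joined bases of the third complementarity-determining region lie in no variable exon. How reads shared by copies were split is not known.

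Groups were taken from the labels. Names and types of the receptor segments were checked at their positions in GENCODE M21, whose transcripts gave the sequences. RefSeq gave the older names. Genes coding for protein, receptor or immunoglobulin segments whose mean reached 0.5 FPKM were fitted with limma 3.58.1 (R 4.3.3, eBayes with trend) on log2(FPKM + 0.5) by group over all 18 libraries, two-sided, with Benjamini-Hochberg adjusted p under 0.05 as a call. The fit was tested on simulated data. The members, the lists and the split by Y-linked RNA (Eif2s3y above 1 FPKM) were chosen with earlier results of these data known. Named were all constant genes, the 8 beta and the 8 alpha variable segments with the highest mean, gamma and delta variable segments that passed the same filter, Trav11, Trav11d and Trav1, the 3 members with the smallest p per comparison, and up to 4 genes per list. No columns of other series were in the tables (0). Alternatives were other pseudocounts, filters, gene types and scalings, sample weights, pairs of groups alone, a replicate block, and leaving out each library. One list of other genes is not reported here.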

Additional observations from a re-analysis of the deposited data

Results flagged for a closer look

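In groups of 6 libraries, 76 pairs of a group and a measure were examined for 1 library far from the rest, and 2 stood out by Dixon's criterion, where chance gives about 1 in 20. Trav11d was at 0.289 FPKM in LMA 1 and at 0.108 to 0.163 FPKM in the other LMA libraries, a gap of 0.694 of the range. The ratio of Trbc1 to Trbc2 was 0.567 in LMS 5 and 0.617 to 0.636 in the other LMS libraries, a gap of 0.716 of the range.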

How the results depend on the processing

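Counts of called segments were 0 in all 6 comparisons under pseudocounts of 0.1 and 1 FPKM, all gene types, TPM scaling, median of ratios and the fit of each pair of groups alone. With a filter at 0.1 FPKM, where more segments were tested, 6 of 126 were called in LMA against N, against 4146 of 13320 genes. With no filter 7 of 149 segments were called there, against 3910 of 18916 genes. All of these segments were lower. Sample weights called 49, 50, 50, 1, 19 and 15 in LM, LMA and LMS against N, LMA and LMS against LM, and LMA against LMS. All were lower, except for 14 of the 15 in LMA against LMS, which were higher. Leaving out each library in turn gave 0 to 38 in LM against N, 0 to 47 in LMA against N and 0 to 34 in LMS against N, all calls coming without N 3, and 0 to 0 in the other 3. Within the libraries with Y-linked RNA, added after seeing the data, 40, 35, 17, 19 and 14 were called in LM, LMA and LMS against N, LMS against LM and LMA against LMS. There the change turned positive for Trbv26 (0.26, 0.38 and 0.10 in LM, LMA and LMS against N), Trbv16 (0.90, 0.80 and 0.34), Trgv2 (0.19 in LM against N, 0.0442 in LMA against LMS), Trdv2-2 (0.29 in LMA against N) and Trbv15 (0.47 in LMS against N). Leaving out 1 library gave Trbv15 -2.32 to 0.11 in LMS against N, the latter without N 1, and Trgv2 turned to 0.0421 in LMA against LMS with sample weights. The median over the 51 segments turned to 0.27 with sample weights in LMA against LMS and to 0.04 without N 1 in LMS against N. The cause was not tested. The replicate block called 0 segments in each comparison, and same-numbered libraries deviated with r of -0.643 to 0.907 over 21 pairs, so the numbers share no more than a number and no pairing was used. Over all genes, LM against N called 2830, or 48 for the pair of groups alone, and LMA against LM called 0, 128 for the pair alone and 39 with no filter. With sample weights the 6 counts over all genes were 9616, 9721, 9553, 163, 8060 and 8495, and within the libraries with Y-linked RNA 7116, 7273, 819, 67, 7944 and 8422. The share of calls that were higher was 36.5% in LM against N (41.0% with TPM scaling, 52.7% with median of ratios), 38.5% in LMA against N (48.9% and 54.0%), 62.8% in LMS against LM (54.0% and 48.4%) and 37.0% in LMA against LMS (52.1% and 51.6%). Most alpha, gamma and delta segments lay too low for a test, levels of identical copies depend on read assignment, and N rests on 3 unlike libraries.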
